A study of Mus musculus with 61 samples.

Results

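The homozygous Del(d1-d4) deletion was compared with wild-type stembryos of the same stage over all genes, at 96 h and at 120 h after aggregation. Stembryos, also called gastruloids, are aggregates of mouse embryonic stem (mES) cells that break symmetry in culture and grow a protrusion resembling the tail bud. The deletion removes the Hoxd1 to Hoxd4 interval from chromosome 2. The mRNA measurements used here covered 10 of the 61 libraries of the series, chosen by genotype, stage and replicate name: 2 Del(d1-d4) and 3 plain wild-type libraries at each stage. Wild-type libraries marked as time course, and plain replicate 4, were left out of these groups.

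All these groups were treated alike. About 300 cells were seeded per aggregate, and the GSK-3 inhibitor Chiron, a Wnt agonist, was given as a pulse from 48 h to 72 h. Each library came from a pool of stembryos. At 96 h they were taken without selection, whereas from 108 h only elongating ones were kept, so the 120 h values describe stembryos chosen for their shape. Both genotypes derive from EmbryoMax 129/SVEV mES cells, and the mutant line was made with CRISPR/Cas9 and selected as clones. The study's methods describe the replicates as biological. How many clones stand behind them is not given in the sources used here. The p-values therefore measure the spread between libraries of the same group, pooled over the series, and not between clones. As a second reference, 3 further edited lines from the same parental cells were used, Del(CBS1), Del(CBS1-2) and Del(CBS2), with 6 libraries per stage in all. They lack 1 or 2 CTCF-binding sites of the HoxD cluster but keep Hoxd1, Hoxd3 and Hoxd4. Per the study's methods, Del(CBS1-2) was made by a further deletion in Del(CBS1) cells. These 2 lines therefore share a history and are not independent references.

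Hox genes encode transcription factors that give cells an address along the head-to-tail axis. They lie in clusters, HoxA to HoxD, and are switched on in the order in which they lie, from the 3′ end (group 1) to the 5′ end (group 13). Genes of the same group in different clusters are paralogues, with partly overlapping functions in mouse embryos. In the tail bud, neuro-mesodermal progenitors kept by Wnt and FGF signals feed the spinal cord and the presomitic mesoderm, from which somites are cut off.

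Values were in FPKM, fragments scaled to transcript length and library size. Changes were computed on log2(FPKM + 0.1), which understates the change of low genes, and are given as log2 differences ± standard error. The fit was made with limma over 17101 genes, and a gene was called when its Benjamini-Hochberg adjusted p was under 0.05. The estimated depth of the 10 libraries was 23.71 M to 32.05 M fragments. One control stood apart: wild-type replicate 3 correlated with replicates 1 and 2 at a Spearman rho of 0.952 to 0.958, against 0.977 between these 2. Mutant replicate 1 at 96 h stood apart to a like extent, with a rho of 0.951 and 0.953 to wild-type replicates 1 and 2 and 0.957 to the other mutant library, which was at 0.972 to both controls. Wild-type replicate 3 also had a summed level of the 18 pluripotency genes listed here of 412 FPKM at 96 h and 397 FPKM at 120 h, against 62.0 to 79.7 FPKM in the other controls. Counts are therefore given with and without this control. All 5 libraries at 96 h held high levels of T (56 to 122 FPKM) and Tbx6 (135 to 195 FPKM), which mark the posterior progenitors and presomitic mesoderm for which stembryos are known.

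The deleted genes were scored first. Hoxd1 (chr2:74762980-74765142, mm10) was at 11, 9.26 and 6.79 FPKM in wild type and listed at 0 in both mutant libraries at 96 h, and at 5.33, 4.59 and 6.21 FPKM against 0 and 0 at 120 h. Against the limit set by 3 fragments per library, this was at least 140-fold lower at 96 h and 81.1-fold lower at 120 h. Hoxd3 (chr2:74711927-74748271) was at 27.7 to 30.9 FPKM at 96 h and 16.7 to 21.7 FPKM at 120 h in wild type, and Hoxd4 (chr2:74721978-74729160) at 28.3 to 35.4 and 23.9 to 32.2 FPKM. Both were listed at 0 in all 4 mutant libraries. The noncoding Haglr, transcribed from the opposite strand between the Hoxd3 and Hoxd1 bodies (chr2:74748422-74762896), was at 6.28 to 10.9 FPKM in wild type and at 0 in 3 mutant libraries, with 0.0434 FPKM in the remaining one. The genotype labels thus held in every library.

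A microRNA gene, Mir10b, lies inside the annotated Hoxd4 body. The deletion breakpoints were not mapped here, so the loss of Mir10b was not shown. Its relative Mir10a lies in the HoxB region of chromosome 11, outside the deletion. Both were listed in RefSeq on GRCm38.p6. Their mature forms are shown because they share a seed, of which the deletion may remove 1 copy. The 23-base sequences share the seed, bases 2 to 8, in capitals, and differ at 1 position counted from the 5′ end, A12U from miR-10b to miR-10a. Neither small RNA is measured by these poly-A libraries.
mmu-miR-10b-5p (chr2:74726074-74726096, +): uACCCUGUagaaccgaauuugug
mmu-miR-10a-5p (chr11:96317186-96317208, +): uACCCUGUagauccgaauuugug

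The Hoxd genes left 5′ of the deletion were lower. Hoxd8, the nearest, was at 2.14, 2.08 and 4.23 FPKM in wild type and 0.688 and 0.744 FPKM in Del(d1-d4) at 96 h, and at 11, 11.5 and 10.6 against 2.32 and 2.53 FPKM at 120 h. The groups did not overlap at either stage, with log2 changes of -1.76 ± 0.45 (adjusted p = 0.047) and -2.14 ± 0.45 (adjusted p = 0.0072). Hoxd9, next in the row, was at 12.7, 12.6 and 12 FPKM at 120 h in wild type and 3.38 and 2.86 FPKM in the mutant (-1.97 ± 0.52, adjusted p = 0.043). Its 96 h values were 0.736, 1.05 and 5.46 against 0.314 and 0.174 FPKM (-2.38 ± 0.52, adjusted p = 0.016), and replicate 3 was far above the others. Without that replicate the 96 h calls of Hoxd8 (-1.44, adjusted p = 0.24) and Hoxd9 (-1.54, adjusted p = 0.13) were lost. The 120 h call of Hoxd9 was lost with wild-type replicate 4 added (adjusted p = 0.10), whereas that of Hoxd8 remained.

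Hoxd10 is switched on later and was nearly silent at 96 h. At 120 h it was at 0.456, 0.546 and 1.35 FPKM in wild type and 0 and 0.0219 FPKM in Del(d1-d4), without overlap (-2.87 ± 0.38, adjusted p = 1.9e-05). Hoxd11 and Hoxd13 were at most 0.142 FPKM in the 10 libraries and were not called. An antisense transcript moved the other way: Hoxd3os1 (chr2:74703248-74716130, minus strand), whose body overlaps Hoxd8 and the 5′ end of Hoxd3, was listed at 0 in all wild-type and CTCF-site libraries of these stages but at 1.04 and 1.43 FPKM in the mutant at 96 h and 6.24 and 3.54 FPKM at 120 h. It was called at both stages (adjusted p = 3.2e-22 and 3.5e-27). FPKM were computed with the default settings of Cufflinks, whose library type is unstranded, and without strand the reads of an antisense RNA and its partners cannot be told apart. None of the 14 genes flanking HoxD passed the test at either stage.

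Outside HoxD, the Hox clusters passed the test nearly nowhere. The 7 tested paralogues of the deleted genes had no call at 96 h or at 120 h. Their medians were -0.087 and -0.049 on the log2 scale, against -0.047 and 0 over all genes tested. Their summed level overlapped between genotypes at 96 h. At 120 h it was 129 and 130 FPKM in the mutant, below the 153 to 173 FPKM of the controls. Calls amounted to 0.409% of all tested genes higher and 0.526% lower at 96 h, and to 0.415% higher and 1.3% lower at 120 h. HoxA (10 genes) and HoxB (9 genes) had no call at either stage, and HoxC (7 genes) had none at 96 h and 1 at 120 h. Their medians were -0.106, -0.087 and -0.39 at 96 h, and -0.349, -0.034 and -0.177 at 120 h. Without wild-type replicate 3 those of HoxA were -0.011 and -0.151. Summed over HoxA, both mutant libraries lay below all controls, at 99.5 and 93.7 against 110 to 118 FPKM at 96 h. At 120 h they were at 130 and 135 against 152 to 160 FPKM. HoxC summed to 76.3 and 76.8 against 82.6 to 89.1 FPKM at 120 h. Summed HoxB levels overlapped at both stages. A p that misses the threshold does not show equal levels, and 2 mutant libraries limit what could be seen.

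Among the paralogues of Hoxd1, Hoxb1 lay below all controls at 120 h. It was at 40.3, 40.0 and 42.3 FPKM in wild type and 26.9 and 25.5 FPKM in the mutant (-0.64 ± 0.18, adjusted p = 0.059), below the lines as well, which lay between 30 and 42.5 FPKM. When the spread was taken from the compared libraries alone, Hoxb1 (adjusted p = 0.032) and Hoxa10 (adjusted p = 0.048) were among the Hox genes that passed at 120 h, and Hoxb1 also passed with wild-type replicate 4 added (adjusted p = 0.042). At 96 h, Hoxb1 was at 99.2, 99.8 and 115 FPKM in wild type, and both mutant libraries lay within that range (0.01 ± 0.18).

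The group 3 and group 4 paralogues overlapped or nearly so. Hoxa3 was at 18.6, 18.4 and 15.0 FPKM in wild type and 16.6 and 16.9 FPKM in the mutant at 120 h (-0.04 ± 0.37), and Hoxb3 at 33.4, 32.1 and 27.2 against 29.1 and 30.3 FPKM (-0.05 ± 0.23). Hoxb4 was at 13.8, 14.2 and 11.8 against 15.6 and 15.1 FPKM (0.21 ± 0.26), a small step upwards within the error. Hoxc4 was at 22.9, 23.9 and 15.7 against 16.9 and 17.5 FPKM (-0.25 ± 0.48). Hoxa4 was listed at 0 in all 10 libraries. None of these was called at 96 h or 120 h.

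**Figure D1:**
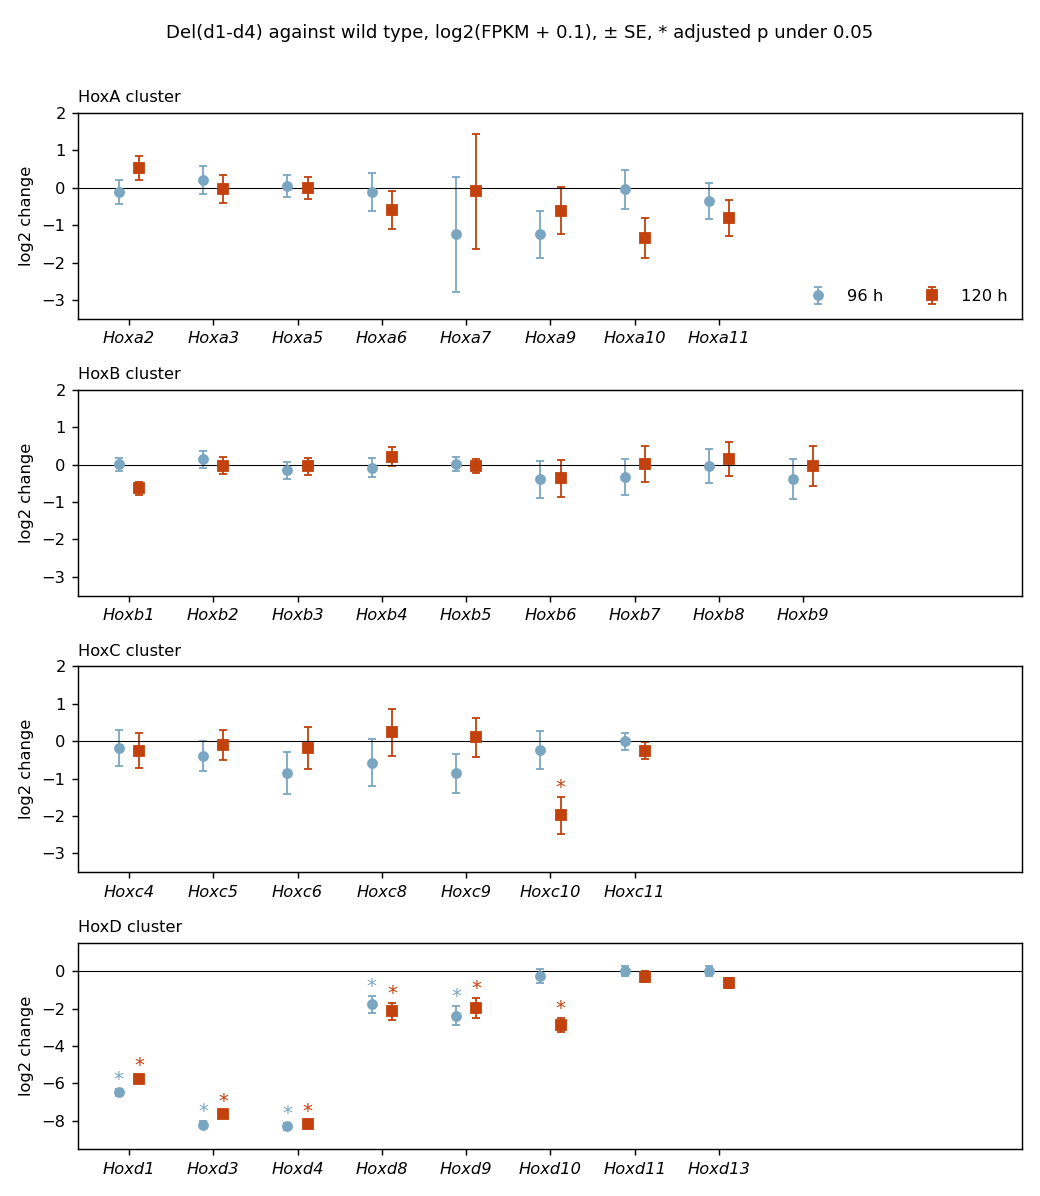
Change of the Hox genes reported here with a value above 0 in any of the 10 libraries, by cluster. The y axis is the log2(FPKM + 0.1) difference of Del(d1-d4) from wild type (HoxD on a wider scale), bars are standard errors, circles are 96 h, squares 120 h, and an asterisk marks an adjusted p under 0.05. HoxA and HoxB carry no asterisk, HoxC carries 1 at Hoxc10, and Hoxd1 to Hoxd10 lie below 0.

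Among the coding Hox genes the single call outside HoxD was Hoxc10 at 120 h, a late gene of the lumbar level. It was at 8.04, 6.72 and 12.8 FPKM in wild type and 2.28 and 2.06 FPKM in Del(d1-d4), without overlap (-1.98 ± 0.50, adjusted p = 0.03). The call was lost without wild-type replicate 3 (-1.72, adjusted p = 0.13), and the difference from the CTCF-site lines, which lay at 3.62 to 5.01 FPKM, was smaller (-0.95 ± 0.45, adjusted p = 0.31). Hoxa10, its HoxA paralogue, was at 3.93, 3.59 and 4.97 against 1.46 and 1.66 FPKM (-1.35 ± 0.53, adjusted p = 0.26). Among the middle genes, Hoxb9 was at 98.0, 96.2 and 76.8 FPKM in wild type and 85.9 and 88.4 FPKM in the mutant, and Hoxc9 at 9.56, 10.1 and 9.15 against 10.1 and 10.5 FPKM. The antisense Hotairm1 of HoxA, listed at 0 in all 6 wild-type libraries, was at 0 and 22.8 FPKM in the mutant at 96 h and 14.8 and 15.2 FPKM at 120 h, where it was called (adjusted p = 0.00066). It ranged from 0 to 18.1 FPKM in the CTCF-site lines at 120 h, and its jump between the mutant replicates at 96 h limits it as a measurement. Of the 11 listed genes of the TALE homeobox family, only some of which encode HOX cofactors, Tgif1 fell at 120 h. It went from 47.6, 47.4 and 45.1 to 37.2 and 34.7 FPKM (-0.38 ± 0.08, adjusted p = 0.0048). The call was lost after upper-quartile scaling (adjusted p = 0.098) and with only the compared libraries (adjusted p = 0.23).

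Genome-wide, 160 genes were called at 96 h (70 higher, 90 lower) and 293 at 120 h (71 higher, 222 lower). Without wild-type replicate 3 the counts were 188 and 273, of which 119 and 177 were shared with the full set. At 96 h, 56 genes were called without mutant replicate 1 and 339 without mutant replicate 2. When only the compared libraries set the spread, 18 genes were called at 96 h and 35 at 120 h, so most calls rest on the spread being shared across the series. The direction at 96 h depended on the scaling: 67 higher and 27 lower after upper-quartile scaling, and 78 and 49 after median-ratio scaling. At 96 h, 54 of the 70 higher genes were short noncoding RNAs, and 77 of the 90 lower genes coded for proteins. At 120 h, 201 of the 222 lower genes were protein coding. In these bulk samples, fewer cells of a type and less RNA per cell cannot be told apart.

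Genes of the tail bud were lower at 120 h. Of the neuro-mesodermal progenitor genes 4 of 15 fell, of the presomitic and clock genes 6 of 18, and none of either list rose. Their medians were -0.766 and -0.703 on the log2 scale, against 0 over all genes. In 14 of 15 and 16 of 18 genes both mutant libraries lay below all 3 controls, which was so for 16.2% of all genes tested at this stage. At 96 h neither list had a call, and the medians were -0.342 and 0.046. Both mutant libraries lay below all controls in 8 of 15 and 1 of 18 genes at 96 h, against 18% of all genes tested. The count of calls at 120 h depended on the controls and the spread used. Without wild-type replicate 3 it was 1 and 2 genes, with medians of -0.697 and -0.571. It was 2 and 0 genes when only the compared libraries were fitted.

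Wnt3a is the Wnt ligand of the tail bud. At 120 h it was at 4.71, 3.76 and 5.43 FPKM in wild type and 0.938 and 0.642 FPKM in Del(d1-d4) (-2.42 ± 0.33, adjusted p = 3.1e-05). The groups did not overlap, and the call held without replicate 3 (-2.30, adjusted p = 0.00031) and with only the compared libraries (adjusted p = 0.0042). At 96 h Wnt3a was at 21.4, 23.9 and 26.5 against 16.9 and 16.1 FPKM (-0.53 ± 0.33, adjusted p = 0.61), lower in both mutant libraries but not called.

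Msgn1 and Tbx6, transcription factors that set the presomitic fate, followed. Msgn1 was at 5.16, 4.96 and 9.33 FPKM in wild type and 1.24 and 0.481 FPKM in the mutant at 120 h (-2.84 ± 0.46, adjusted p = 0.00034). Tbx6 was at 14.9, 13.5 and 21 against 6.37 and 4.26 FPKM (-1.62 ± 0.30, adjusted p = 0.0023). Neither group overlapped, and both calls held without replicate 3 (adjusted p = 0.0022 and 0.016) but not with only the compared libraries (adjusted p = 0.095 and 0.080). At 96 h the same genes overlapped between genotypes, Msgn1 at 66.8, 83.6 and 142 against 80.7 and 80.2 FPKM. In the wild-type time course Msgn1 fell by 2.23 and Tbx6 by 1.99 on the log2 scale from 96 h to 120 h.

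T (Brachyury), which marks the progenitors and the notochord, was at 27.3, 25.1 and 35.3 FPKM in wild type and 15.1 and 14.6 FPKM in the mutant at 120 h (-0.95 ± 0.24, adjusted p = 0.034). The groups did not overlap, and the CTCF-site lines lay at 25.0 to 33.9 FPKM, all above the mutant. Without replicate 3 the call was lost (-0.81, adjusted p = 0.13). Sp5, a Wnt-induced factor, was at 2.55, 2.21 and 3.86 against 1.39 and 0.935 FPKM (-1.22 ± 0.30, adjusted p = 0.029), and Cdx1, an activator of middle Hox genes, at 11, 11.2 and 22 against 6.66 and 5.71 FPKM (-1.17 ± 0.28, adjusted p = 0.021). Both calls were lost without replicate 3. Lin28a, an RNA-binding regulator of developmental timing, fell from 104, 106 and 132 to 79.8 and 76.3 FPKM (-0.54 ± 0.11, adjusted p = 0.0059).

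Among 30 Wnt ligands and targets 7 fell at 120 h and none rose, with a median of -0.410. Of all tested genes, 1.3% were lower at this stage. Axin2, Dkk1, Sp5 and Wnt3a are among the 7 and were already counted in the progenitor or presomitic list. The lists used here share members, so their counts are not separate results. Lef1, a transcription factor of the pathway, was at 39.5, 38.1 and 40.7 FPKM in wild type and 25.6 and 24.0 FPKM in the mutant (-0.67 ± 0.13, adjusted p = 0.0033). Notum, a secreted enzyme that inactivates Wnt proteins, was at 9.36, 8.46 and 7.50 against 2.42 and 2.17 FPKM (-1.83 ± 0.43, adjusted p = 0.017). For both genes the 3 controls lay close together, and the calls held without replicate 3 (adjusted p = 0.013 and 0.037) and with only the compared libraries (adjusted p = 0.0065 and 0.0042). Axin2, the feedback inhibitor that serves as a general readout of Wnt signalling, was at 18.4, 17.7 and 20.1 against 13.2 and 12.5 FPKM (-0.54 ± 0.12, adjusted p = 0.013; adjusted p = 0.055 without replicate 3). The pathway list had 4 calls both without replicate 3 and with only the compared libraries, and 3 after upper-quartile scaling. At 96 h none was called, and the median was -0.092.

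The letters of the TCF/LEF binding motif were looked up in the promoters, from 250 bases before to 50 after each start (RefSeq, GRCm38.p6). The 6-base motif CTTTGA, or TCAAAG on the other strand, was present in 16% of 32851 promoters and in 14.0% of the 10510 tested genes with one. Of the 163 genes lower at 120 h that had a listed promoter, 41 (25.2%) held it. Of the 11 called genes of the progenitor, presomitic and Wnt lists with a promoter it was found in 5, Dkk1, Lef1, Msgn1, Sp5 and T. A match is no evidence of binding, and no test was made. The stretch around the first match in each promoter is shown on the strand of the gene, with the motif in capitals, so that the sites of the genes described above can be seen.
Msgn1 (chr12:11209115-11209180, -): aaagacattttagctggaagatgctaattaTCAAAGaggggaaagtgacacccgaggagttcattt
T (chr17:8434173-8434224, +): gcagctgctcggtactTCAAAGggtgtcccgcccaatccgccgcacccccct
Sp5 (chr2:70474689-70474754, +): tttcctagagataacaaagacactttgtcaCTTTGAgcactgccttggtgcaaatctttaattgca
Lef1 (chr3:131156084-131156149, +): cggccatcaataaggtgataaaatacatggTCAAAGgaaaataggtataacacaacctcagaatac
Dkk1 (chr19:30549635-30549700, -): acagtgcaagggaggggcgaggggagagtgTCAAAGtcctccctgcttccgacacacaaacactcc

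FGF ligands fell along with the Wnt genes, 4 of 20 listed genes at 120 h, with a median of -0.370. Fgf4, a ligand of the streak and tail bud, was at 1.05, 1.18 and 3.11 FPKM in wild type and 0.262 and 0.139 FPKM in Del(d1-d4) (-2.51 ± 0.37, adjusted p = 0.0001). Fgf15 was at 3.69, 3.24 and 5.42 against 1.23 and 0.654 FPKM (-2.04 ± 0.31, adjusted p = 0.00014). The groups did not overlap, and both calls held without replicate 3 (adjusted p = 0.00074 and 0.0017) though not with only the compared libraries (adjusted p = 0.14 and 0.051). Fgf3 was at 2.63, 2.98 and 4.30 against 1.21 and 0.712 FPKM and Spry4, an inhibitor induced by FGF, at 2.43, 2.44 and 4.06 against 1.63 and 1.04 FPKM, and these calls were lost without replicate 3. In the BMP and Nodal list 5 of 24 genes fell. Of these, Msx1, a homeobox target of BMP, was at 4.93, 4.46 and 4.92 against 1.69 and 1.14 FPKM (-1.70 ± 0.34, adjusted p = 0.0053; adjusted p = 0.020 with only the compared libraries). Fgf17 and the Wnt potentiator Rspo3 were called against the CTCF-site lines but not against wild type (adjusted p = 0.077 and 0.070).

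**Figure D2:**
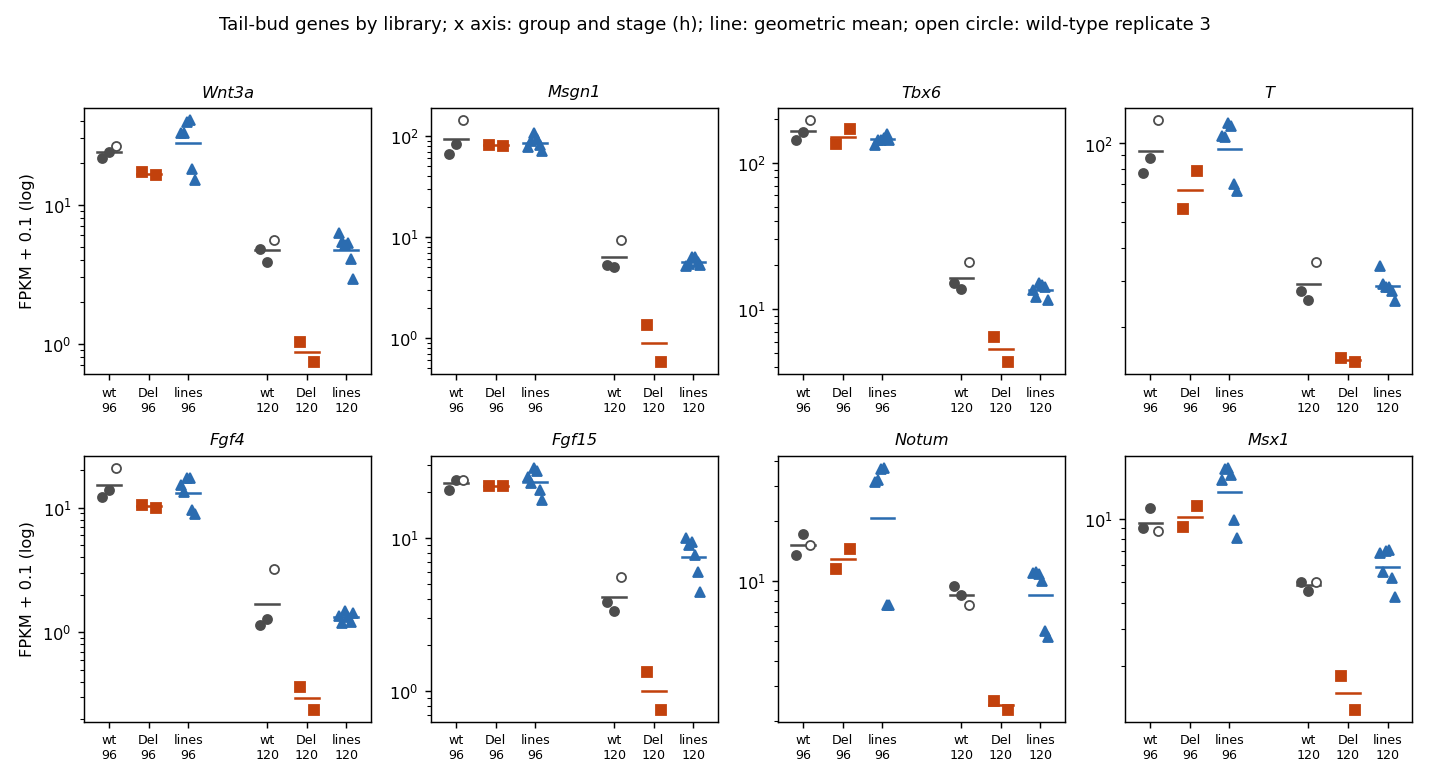
FPKM + 0.1 (log axis) of 8 genes in each library at 96 h and 120 h. Circles are wild type (open for replicate 3), squares Del(d1-d4), triangles the 3 CTCF-site lines, and lines geometric means. At 120 h both squares lie below every circle and triangle in each panel, while at 96 h they do so against the circles for Wnt3a and Fgf4 only.

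The CTCF-site lines gave the same comparison against cells that had also been edited and cloned. Against them, 0.596% of genes were higher and 1.15% lower at 96 h, and 1.09% higher and 2.63% lower at 120 h. At 120 h, 6 of the 15 progenitor genes, 5 of the 18 presomitic genes, 7 of the 30 Wnt genes and 5 of the 20 FGF genes were lower and none was higher. The 2 comparisons share the mutant libraries, so they are not independent. Of the 222 genes lower than wild type at 120 h, 112 (50.5%) were also lower than the lines, and 71 of these were still called against wild type without replicate 3. After upper-quartile scaling 49% of the 96 h calls against the lines were higher, and after median-ratio scaling 50.6%, in place of 34.1%.

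Lists for other tissues held almost no call against wild type. None of 18 somite genes, 22 spinal cord genes, 11 cardiac genes, 16 endoderm genes or 6 neural crest genes was called against wild type at 120 h. The medians were 0.099 for the somite list, 0.156 for the spinal cord list, -0.046 for the cardiac list, -0.55 for the endoderm list and 0.199 for the neural crest list. In 8 of the 16 endoderm genes both mutant libraries lay below all controls, and the summed level of that list was 21.4 and 26.5 FPKM in the mutant against 31.1, 29.3 and 225 FPKM in wild type, where replicate 3 was far above the others. Without that replicate the endoderm median was -0.169. The summed level of the somite list was 612 and 633 FPKM in the mutant, within the 562 to 656 FPKM of the controls. Among 17 endothelial genes Lmo2 fell, from 7.60, 5.73 and 15.7 to 2.66 and 1.93 FPKM (-1.91 ± 0.32, adjusted p = 0.00049). Against the CTCF-site lines, however, 15 of the 17 endothelial genes were lower (median -2.23) and 9 of the 16 endoderm genes (median -1.97). The summed endothelial level was 17.1 and 18.9 FPKM in the mutant, 23.3 to 36.3 FPKM in wild type and 27.9 to 68.7 FPKM in the lines. None of 26 cell-cycle genes was called at either stage.

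Pluripotency genes were low in the mutant at 120 h, and the controls differed widely among themselves. At 120 h, 6 of 18 genes fell, with a median of -2.319, and 7 with a median of -1.4 when replicate 3 was left out. Pou5f1 (Oct4) was at 4.92, 4.95 and 58.6 FPKM in wild type and 1.31 and 1.03 FPKM in Del(d1-d4) (-3.18 ± 0.58, adjusted p = 0.0016). Replicate 3 was more than 10 times the other controls, yet without it the change was still -2.0 (adjusted p = 0.00016). The CTCF-site lines spread from 0.612 to 9.99 FPKM, on both sides of the mutant, and the difference from them was -0.62 ± 0.52 (adjusted p = 0.73). Nanog was at 1.75, 1.51 and 11.5 against 0.337 and 0.304 FPKM (-2.95 ± 0.71, adjusted p = 0.021), with the lines at 0.0652 to 3.04 FPKM. None of the list was called with only the compared libraries, and 1 of 18 (Fgf4) was lower than the lines.

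Dppa5a, a marker of naive stem cells, was called at both stages. At 96 h it was at 19.4, 20.5 and 225 FPKM in wild type and 4.38 and 5.01 FPKM in the mutant, and at 120 h at 27.3, 26.9 and 239 against 4.79 and 3.66 FPKM. Replicate 3 was the outlying control at both stages. Without it the changes were -2.06 (adjusted p = 0.029) and -2.66 (adjusted p = 0.0013), against -3.23 ± 0.75 (adjusted p = 0.02) and -3.71 ± 0.75 (adjusted p = 0.0052) with it. Lefty1, a Nodal inhibitor, was at 1.36, 1.76 and 60.1 against 0.138 and 0.128 FPKM at 96 h, and remained called without replicate 3 at both stages (adjusted p = 0.014 and 0.037). Tdgf1, a Nodal co-receptor, was at 1.41, 1.22 and 16.9 against 0.222 and 0.164 FPKM at 120 h, and Dnmt3l, a DNA methylation cofactor, at 0.866, 0.709 and 7.10 against 0.15 and 0.0485 FPKM. The part that the pluripotency signal of the controls plays in the lower calls was not tested. Of the 222 lower genes at 120 h, replicate 3 was the highest control in 176, against 42.7% of all genes tested, and 135 of the 222 were still called without it.

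**Figure D3:**
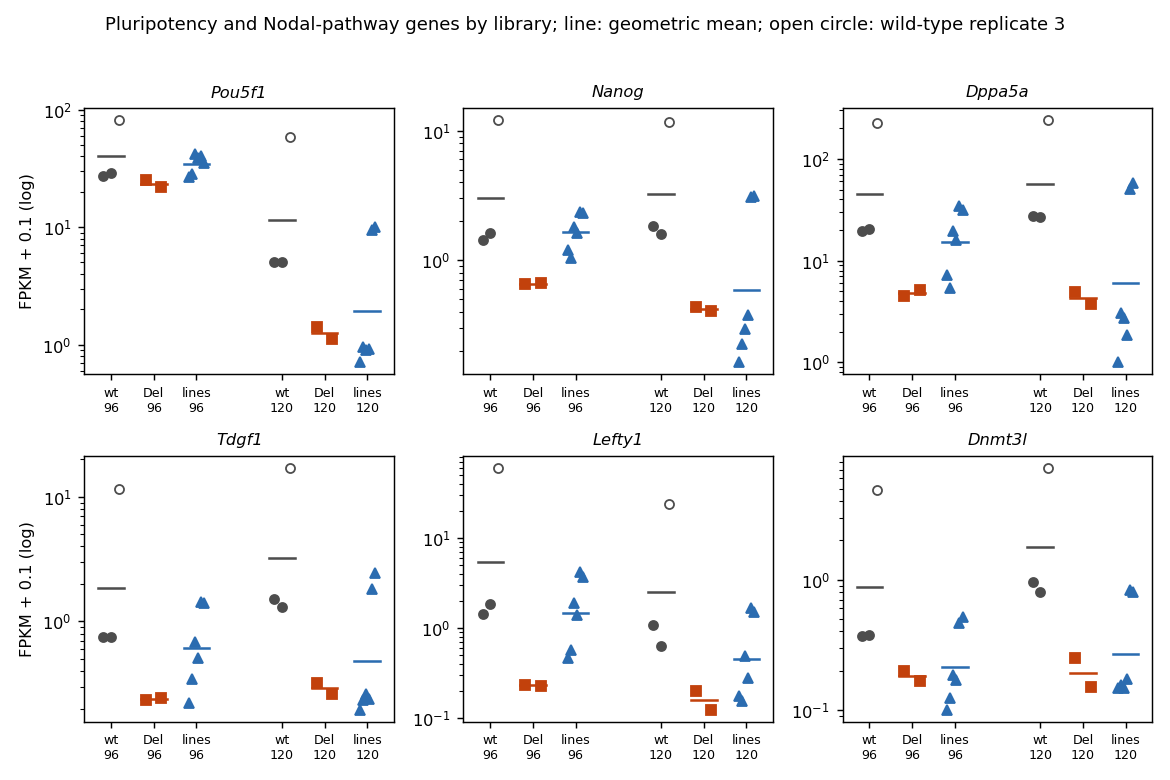
FPKM + 0.1 (log axis) of 6 pluripotency and Nodal-pathway genes in each library, symbols as in the tail-bud plot. The open circle of wild-type replicate 3 lies far above the other controls, the Del(d1-d4) squares below all circles at 120 h, and the triangles of the CTCF-site lines spread around the squares at 120 h.

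Other lists held few calls at 120 h. Of 8 notochord genes 3 fell (Nog, Slc2a3 and T), and of 13 epiblast and streak genes 2 (Lefty2 and T). Without replicate 3 each of these lists had 1 call, and with only the compared libraries neither had any. Hk2, the hexokinase that traps glucose, fell from 21, 19.5 and 18.2 to 13.7 and 13.0 FPKM (-0.54 ± 0.13, adjusted p = 0.024), and the glucose transporter Slc2a3 from 87.2, 82.0 and 109 to 51.4 and 51.7 FPKM (-0.83 ± 0.17, adjusted p = 0.0044). With Mt2 they made 3 of 26 glycolysis and hypoxia genes. Without replicate 3 that list had 7 calls, so here the control that stood apart lowered the count. Atf4, the factor of the integrated stress response, fell from 113, 105 and 137 to 88.3 and 84.5 FPKM (-0.45 ± 0.09, adjusted p = 0.0063) along with its target Trib3, 2 of 19 genes of the unfolded protein response. The calls of Atf4 and Trib3 were lost after upper-quartile scaling (adjusted p = 0.26 and 0.093). They were also lost with only the compared libraries (adjusted p = 0.33 and 0.32), and without replicate 3 that list had 1 call. Cholesterol synthesis had no call among 22 genes.

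Among the genes that rose at 120 h was Mest, an imprinted hydrolase gene expressed from the paternal allele. It was at 938, 974 and 588 FPKM in wild type and 1606 and 1703 FPKM in the mutant, without overlap (1.02 ± 0.25, adjusted p = 0.022). Without replicate 3, the lowest control, the call was lost (0.79, adjusted p = 0.14), and the CTCF-site lines reached 1682 FPKM. Cdkn2a, which encodes cell-cycle inhibitors, was at 5.08, 4.34 and 5.38 against 10.3 and 9.43 FPKM (0.99 ± 0.25, adjusted p = 0.032). Eme2, a subunit of a DNA repair nuclease, was at 3.55, 3.76 and 3.47 against 8.30 and 7.53 FPKM (1.12 ± 0.26, adjusted p = 0.014). Both of these calls held without replicate 3. With wild-type replicate 4 added, and with only the compared libraries, that of Eme2 held (adjusted p = 0.0091 and 0.016). That of Cdkn2a was lost in both fits (adjusted p = 0.11 and 0.17).

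The short RNAs that were higher at 96 h came mostly from 1 library. Rn7sk, a noncoding regulator of transcription elongation, was at 3.42, 2.71 and 2.56 FPKM in wild type and 259 and 7.35 FPKM in Del(d1-d4). Rnu1a1, a U1 splicing RNA, was at 0, 0.116 and 0.885 against 157 and 1.99 FPKM. Mutant replicate 1 held these levels, and over 544 short RNA genes it summed to 12890 FPKM, against 3292 in mutant replicate 2 and 3005 to 5829 in wild type. At 120 h the sums were 1743 and 1933 against 1412 to 2163 FPKM. With p-values adjusted over protein-coding genes alone, 68 genes were called at 96 h (9 higher, 59 lower).

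A smaller set of genes differed at both stages. In total 38 genes (0.222% of those tested) were called in the same direction at 96 h and at 120 h, 4 higher and 34 lower, which was 23.8% of the 96 h calls and 13% of the 120 h calls. The libraries of the 2 stages are separate, but they come from the same mutant line. In addition, wild-type replicate 3 stood apart at both stages, and its 96 h and 120 h libraries correlated at a rho of 0.953. A call at both stages is therefore not independent support. Without replicate 3 there were 42 such genes, of which 25 were shared with the 38. Of the 38 genes, 27 also differed in the same direction from the CTCF-site lines at both stages, 7 of them within HoxD.

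Kat6a, a histone acetyltransferase on chromosome 8 (chr8:22859535-22943259), had the smallest adjusted p of the 20 outside HoxD at 96 h. It was at 14.9, 14.3 and 13.2 FPKM in wild type and 7.68 and 7.71 FPKM in Del(d1-d4) at 96 h, and at 16.9, 17.5 and 17.1 against 10.1 and 10.8 FPKM at 120 h. The groups did not overlap and the CTCF-site lines, at 12.5 to 13.3 and 16 to 16.9 FPKM, lay with or close to wild type. The changes were -0.87 ± 0.07 (adjusted p = 3.6e-11) and -0.70 ± 0.07 (adjusted p = 6.7e-09), and both calls held with only the compared libraries (adjusted p = 0.0029 and 0.0080). Its neighbours Ap3m2 (-0.36 and 0.17) and Ank1 (0.15 and 0.13) were not called.

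Peg13, an imprinted noncoding RNA of chromosome 15, was at 0.637, 0.716 and 1.43 FPKM in wild type and 0.0957 and 0.157 FPKM in the mutant at 96 h (-2.12 ± 0.23, adjusted p = 4.5e-07), and at 0.829, 0.658 and 1.43 against 0.181 and 0.207 FPKM at 120 h (-1.80 ± 0.23, adjusted p = 1e-05). Magohb, a component of the exon junction complex, was at 5.40, 4.43 and 17.6 against 2.12 and 1.65 FPKM, then at 5.82, 5.50 and 15.7 against 1.49 and 1.55 FPKM. In both genes replicate 3 was the highest control, and both remained called without it at both stages. Piezo1, a mechanosensitive ion channel, was at 8.60, 9.32 and 10.7 against 5.20 and 5.88 FPKM (-0.77 ± 0.13, adjusted p = 0.0016), then at 6.75, 6 and 8.61 against 3.49 and 3.42 FPKM (-1.01 ± 0.13, adjusted p = 1.2e-05). B4galt6, a glycolipid-synthesising galactosyltransferase, was at 5.50, 5.50 and 5.13 against 2.59 and 2.74 FPKM, then at 4.43, 4.72 and 5.58 against 2.06 and 2.08 FPKM. Both genes were below every control at both stages.

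Ripk3, Bid and Pmaip1 were also lower at both stages. Ripk3, a kinase of necroptosis, was at 3.20, 4.02 and 4.50 FPKM in wild type and 2.33 and 2.42 FPKM in the mutant at 96 h (-0.68 ± 0.17, adjusted p = 0.034), and at 1.15, 1.07 and 1.47 against 0.412 and 0.566 FPKM at 120 h (-1.18 ± 0.17, adjusted p = 5e-05). Bid, a BH3-domain activator of apoptosis, was at 12.6, 13.4 and 18.9 against 8.66 and 8.38 FPKM, then at 7.85, 7.64 and 11 against 6.18 and 5.49 FPKM. Pmaip1 (Noxa), a p53 target that was not lower than the lines at 120 h, was at 4.03, 3.50 and 8.64 against 1.48 and 1.20 FPKM, and lay below all controls again at 120 h (-1.52 ± 0.31, adjusted p = 0.0059). It was the only call among 21 p53 targets at either stage. The 96 h call of Ripk3 was lost without replicate 3 (adjusted p = 0.15), whereas the calls of Bid and Pmaip1 held without it at both stages. Upper-quartile scaling lost the 96 h call of Ripk3 (adjusted p = 0.19) and the 120 h call of Bid (adjusted p = 0.096). With only the compared libraries none of these genes was called at either stage (adjusted p from 0.086 to 0.52).

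**Figure D4:**
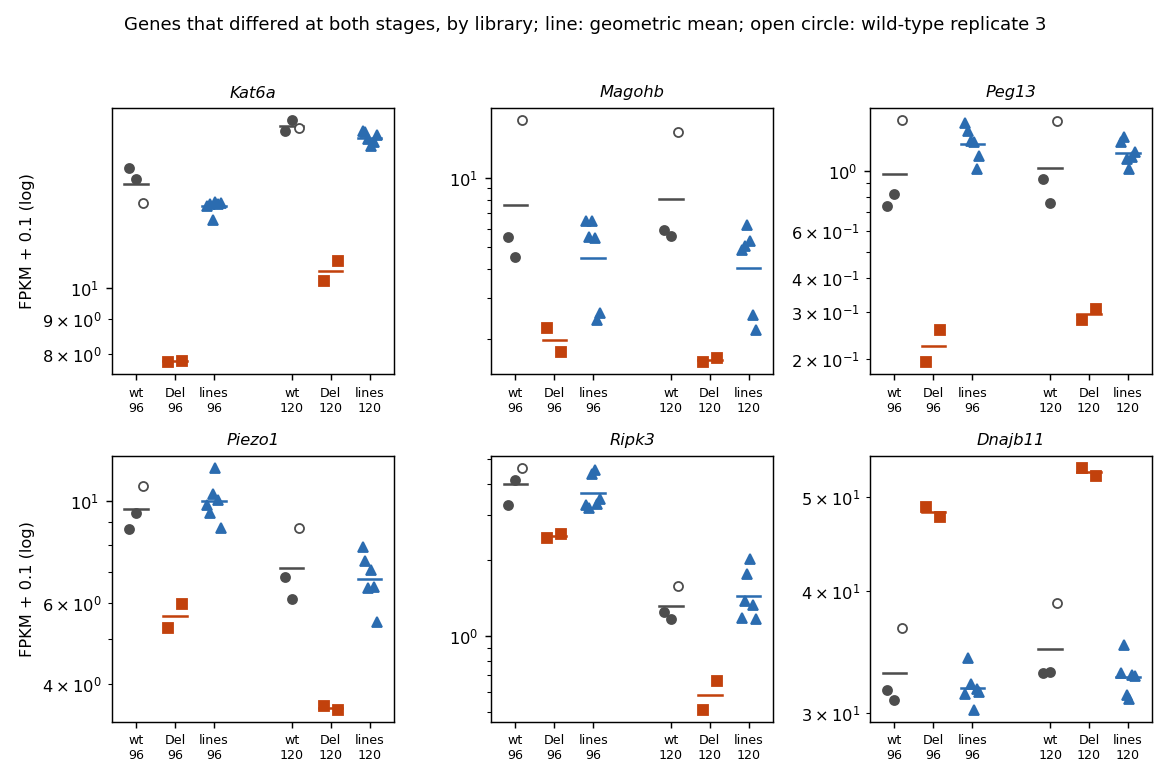
FPKM + 0.1 (log axis) of 6 genes that differed at both stages, symbols as in the tail-bud plot. The Del(d1-d4) squares lie below all circles for the first 5 genes and above them for Dnajb11, at 96 h and at 120 h.

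Of the 4 genes that were higher at both stages, Hoxd3os1 lies in HoxD and the other 3 lie near each other on chromosome 16. Dnajb11, a chaperone cofactor of the endoplasmic reticulum, was at 31.5, 30.8 and 36.5 FPKM in wild type and 48.7 and 47.6 FPKM in the mutant at 96 h (0.55 ± 0.09, adjusted p = 0.0004), and at 32.9, 33.0 and 38.8 against 53.4 and 52.4 FPKM at 120 h (0.60 ± 0.09, adjusted p = 4e-05). Tbccd1, the adjacent gene, was at 10.1, 9.87 and 10.8 against 15.3 and 14.7 FPKM, then at 9.45, 9.16 and 9.21 against 14.9 and 15.1 FPKM. St6gal1, a sialyltransferase, was at 11.3, 11 and 12.8 against 16.1 and 14.6 FPKM, then at 10.8, 11.2 and 11 against 13.8 and 13.9 FPKM. No mutant library overlapped the controls for these genes. The calls of Dnajb11 were lost with wild-type replicate 4 added (adjusted p = 0.054 at 120 h), and under upper-quartile scaling those of St6gal1 at both stages and of Tbccd1 at 96 h.

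The genes around them were then examined, a choice made after the values were seen. Between Tbccd1 and Masp1 (chr16:22813214-23520815), 6 of the 8 tested protein-coding genes were higher in both mutant libraries than in all controls at both stages, by 0.33 to 1.19 on the log2 scale. Over all genes tested, both mutant libraries lay above all controls in 7% at 96 h and in 14.7% at 120 h, each stage taken alone. The 3 genes above defined the stretch and are among the 6, as is Masp1 at its other end. The count is therefore no test of the stretch. Besides the 3 above, the 6 were Eif4a2, Rfc4 and Masp1. Eif4a2, a translation initiation helicase, was not called at either stage (adjusted p = 0.30 and 0.11). Rfc4 is a subunit of the clamp loader of DNA replication, and Masp1 a protease of the complement system. Rfc4 was at 76.4, 71.1 and 78.7 FPKM in wild type and 133 and 125 FPKM in the mutant at 120 h (0.77 ± 0.17, adjusted p = 0.012), and Masp1 at 0.661, 0.710 and 0.571 against 1.44 and 1.77 FPKM (1.19 ± 0.20, adjusted p = 0.00044). On the proximal side the nearest protein-coding gene, Dgkg, was at 0.633, 0.577 and 0.128 against 0.639 and 0.848 FPKM at 96 h, without overlap (0.79 ± 0.49, adjusted p = 0.60), and overlapped at 120 h (0.14 ± 0.49). Farther out Tra2b changed by -0.06 at both stages and Etv5 by -0.19 and -0.57, and neither was called. The other two genes within the stretch were low: Ahsg overlapped at 120 h, Fetub was at most 0.312 FPKM in the 10 libraries with changes of -0.24 and -0.86 (not called), and the pseudogenes Gm6493 and Gm8130 within it were not higher. The copy number of the stretch was not measured in these data.

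**Figure D5:**
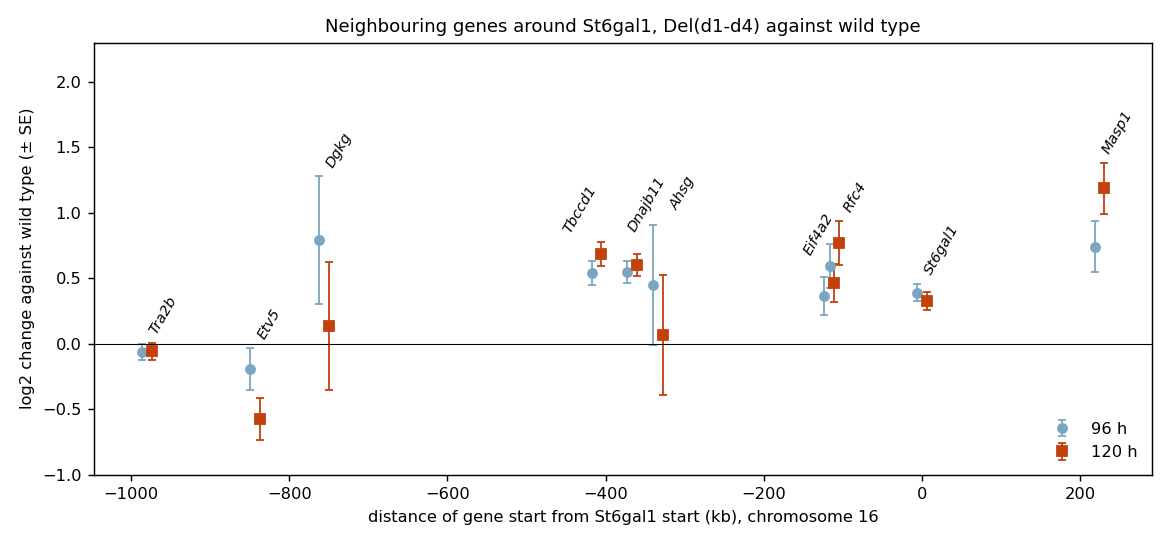
Change of protein-coding genes around St6gal1 on chromosome 16 against the distance of the gene start from that of St6gal1 in kilobases. The y axis is the log2(FPKM + 0.1) difference of Del(d1-d4) from wild type with its standard error (circles 96 h, squares 120 h). Fetub is too low to be plotted. The plotted genes from Tbccd1 to Masp1 lie above 0 at both stages, although the bars of Ahsg cross 0, and Tra2b lies near 0.

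The change itself differed between the stages in 15 genes (0.0877% of those tested), 9 with a more positive change at 120 h and 6 with a more negative one. Klf14, a zinc-finger factor that was near 0 at 96 h, was at 0.552, 0.625 and 0.690 FPKM in wild type and 0.0259 and 0.0626 FPKM in the mutant at 120 h (-2.33 ± 0.26, adjusted p = 5e-07). The CTCF-site lines lay at 0 to 0.324 FPKM, and the difference of the mutant from them was -0.34 ± 0.23 (adjusted p = 0.60). Smim10l2a, a gene of the X chromosome, was at 7.25, 5.86 and 7.40 against 3.62 and 3.57 FPKM at 120 h, also below all lines, while at 96 h it was at 3.77, 3.63 and 3.44 against 3.40 and 3.39 FPKM. Anxa11, a membrane-binding annexin, went from 30.2, 31.7 and 29.5 against 40.8 and 41.9 FPKM at 96 h to 7.58, 7.21 and 13.7 against 5.14 and 4.82 FPKM at 120 h. Gng3, a G-protein subunit, was at 1.34, 1.49 and 3.03 FPKM in wild type and listed at 0 in both mutant libraries at 120 h, and the lines ranged from 0 to 2.02 FPKM.

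The developmental stage of each library was also read off the wild-type time course from 1000 genes. Mutant libraries were placed at 100 and 99 h at the 96 h stage and both at 126 h at the 120 h stage. The controls were placed at 101, 100 and 92 h, and at 126, 126 and 125 h, with replicate 3 the earliest at both. Of the 222 genes lower at 120 h, 140 (63.1%) fell from 96 h to 120 h in the time course, against 45.9% of all tested genes. With 2000 genes the 120 h controls were placed at 115, 125 and 115 h and the mutant at 125 and 126 h, so the placement at this stage depended on the number of genes.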

How the data were processed

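Per the labels, poly-A RNA was sequenced as stranded libraries, and per the study's methods and processing notes the authors trimmed reads with cutadapt 1.16, aligned them with STAR 2.7.7a to mm10 and ran Cufflinks 2.2.1 on uniquely mapped reads. The deposited values are FPKM per gene, with no counts. The table holds 55052 genes in 61 libraries. For 25 repeated identifiers the values were added up, and 14 genes held failed estimates. Read depth was estimated from low values of genes with 1 transcript of at least 1000 bases: 77.5% to 80.2% of them were whole fragments within 0.02, so counts were not recovered and no count test was run.

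Genes with a mean of at least 1 FPKM in any group were tested (17101). limma 3.58.1 in R 4.3.3 was fitted to log2(FPKM + 0.1) of 59 libraries in 28 groups (all but wild-type replicate 4 at the 2 stages), with 31 residual degrees of freedom, two-sided tests and Benjamini-Hochberg adjustment over all genes at 0.05. There were 5 comparisons: Del(d1-d4) against wild type at each stage, the difference between these, and against the mean of the CTCF-site lines at each stage. On simulated data for the 96 h and 120 h comparisons, 80 and 79 of 100 genes changed by 1 on the log2 scale were recovered, with 12 and 9 false calls among 183 and 182. The simulated noise was independent, with 1 spread per gene for all libraries and no outlying library. Changes were set only in genes with a wild-type mean log2(FPKM + 0.1) above 1. The real libraries differ in these respects, so the rates may not hold for them.

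Members, the 42 gene lists and the naming rule were chosen with earlier results of these data known. Named were all Hox genes, list members that passed or defined a list, up to 12 genes with the largest rise and fall per stage and at both stages, and the 8 with the largest difference between stages; some genes that the rule names are not reported here. The alternatives tried were replicate 4, only the compared libraries, trend and robust moderation, pseudocount 1, no filter, upper-quartile and median-ratio scaling, the replicate number as a block and leaving out each library. Added after seeing the data were fits without wild-type replicate 3 at both stages, adjustment over protein-coding genes and leaving out each CTCF-site line. Deviations of same-numbered mutant and wild-type libraries from their group means correlated at -0.0682 to 0.0256, and these libraries were not treated as pairs. With 2 mutant libraries per stage the deviations mirror each other, so this check says little about pairing. Precision is limited by the 2 mutant libraries per stage, and the limit of 3 fragments covers counting error only.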

Additional observations from a re-analysis of the deposited data

Results flagged for a closer look

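The change against wild type differed between 96 h and 120 h in 8 named genes, by an interaction term in limma with adjusted p under 0.05. The change at 120 h minus that at 96 h was -4.49 on the log2 scale for Gng3, -2.62 for Hoxd10, -1.91 for Klf14, -1.30 for Anxa11 and -0.81 for Smim10l2a. It was 1.86 for Hoxd3os1, which is listed at 0 in all controls. For Zcchc18, a zinc-finger gene of the X chromosome, it was 0.89, from 2.55, 2.44 and 2.50 against 1.75 and 1.68 FPKM at 96 h to 4.56, 4.45 and 3.14 against 5.07 and 5.34 FPKM at 120 h. For Wwtr1, which encodes the Hippo effector TAZ, it was 0.59, and at 120 h its levels were 9.07, 8.72 and 8.67 FPKM in wild type and 11.3 to 12 FPKM in the mutant. With wild-type replicate 4 added 4 of these 8 held, with upper-quartile scaling 1, and with only the compared libraries 1 of the 6 that could be tested. No cause was tested.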

How the results depend on the processing

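Counts are of genes called at 96 h (160), at 120 h (293), at both stages in the same direction (38), between stages (15), and against the CTCF-site lines at 96 h (299) and 120 h (636). With only the compared libraries in the fit they were 18, 35, 10, 8, 1342 and 2071, and with upper-quartile scaling 94, 145, 15, 2, 149 and 320. With wild-type replicate 4 the difference between stages had 4 genes and the 96 h comparison with the lines 195. Without the filter on low values 241 genes were called at 96 h. Adjusted over protein-coding genes, 68 were called at 96 h and 9 between stages. Against the lines other than Del(CBS1), Del(CBS1-2) and Del(CBS2) the counts were 145, 76 and 988 at 96 h and 373, 284 and 1097 at 120 h. Leaving out 1 library at a time, they ranged from 56 to 339 at 96 h, 66 to 487 at 120 h, 18 to 55 at both stages, 6 to 142 between stages, 64 to 546 against the lines at 96 h and 124 to 579 at 120 h. The lowest count at 96 h came without mutant replicate 1 and the highest without mutant replicate 2. At 120 h the lowest came without mutant replicate 2 (103 without replicate 1) and the highest without wild-type replicate 2, and 159 remained without wild-type replicate 3 of that stage. Where 1 mutant library was left, it was assumed to vary like the other groups. The estimated age at 120 h, mutant minus wild type, was 7.17 h with 2000 genes against 0.33 h with 1000. With replicate 4 the predicted gene Gm18666, lower at both stages, turned to 0.621 and 0.557 on the log2 scale. The cause of these shifts was not tested. Of the named genes called, 31 of 49 at 96 h and 61 of 91 at 120 h were still called after upper-quartile scaling, and 42 and 73 with a pseudocount of 1.

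With the replicate number as a block the counts were 204 at 96 h, 259 at 120 h, 20 between stages, 279 and 585 against the lines, and 40 at both stages. The numbers are shared by name only.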

Other observations

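Imprinted genes separated the genotypes in another way. Against wild type at 120 h, 1 of the 32 tested genes of the list was called (Mest). Peg13, described above as lower than wild type at both stages, is imprinted but not on this list. Against the CTCF-site lines 6 listed genes were higher (Cdkn1c, Dlk1, Grb10, Igf2, Igf2r and Zim1) and 4 lower (Ndn, Plagl1, Slc38a4 and Snrpn). Grb10, an adaptor that restrains growth signalling, was at 21.8, 22.1 and 178 FPKM in wild type, 63.8 and 65.2 FPKM in Del(d1-d4) and 2.37 to 8.48 FPKM in the lines at 120 h. At 96 h it was at 20, 19.1 and 105 FPKM in wild type, 44.5 and 45.6 FPKM in the mutant and 3.12 to 6.72 FPKM in the lines. Cdkn1c, a cell-cycle inhibitor, was at 8.61, 9.96 and 39.8 FPKM in wild type, 38.4 and 39.2 FPKM in the mutant and 1.77 to 7.53 FPKM in the lines at 120 h. The mutant lay between the controls for Grb10, with replicate 3 above it and the lines below all of them. Without replicate 3, Grb10 was called higher than wild type at 120 h (1.55, limma adjusted p = 9.5e-06), and so was Cdkn1c (2.05, adjusted p = 2.8e-05).

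Several genes were listed at 0 in some libraries and at several FPKM in others of the same kind. Rb1, the retinoblastoma gene, was at 8.74, 8.66 and 7.60 FPKM in wild type and listed at 0 in both mutant libraries at 120 h, but at 4.69 and 5.73 FPKM in the mutant at 96 h and from 0 to 9.30 FPKM in the CTCF-site lines. Galk2, which encodes a sugar kinase, was listed at 0 in all 6 controls and at 12.1 and 11.6 FPKM in the mutant at 120 h, and at 12.9 and 0 FPKM at 96 h. At each stage 43 called genes were of this kind, with a 0 beside a value of 1 FPKM or more within a group or 0 throughout a group. Whether such values are failed estimates was not tested.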
